A study of Mus musculus with 6 samples.

Results

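The genes described here encode the machinery that carries newly made proteins from the endoplasmic reticulum (ER) to the Golgi apparatus and returns escaped ER residents. The list held 41 genes, taken by symbol from the 54532 genes of the deposited table. All 41 were found once and all 41 passed the filter on low counts that left 17318 genes for testing. They fell into 12 genes of the COPII coat and its assembly, 7 cargo receptors of ER exit sites, 8 p24 family genes, 4 SNARE genes of ER to Golgi fusion, 3 KDEL receptors and 7 subunits of the COPI coat.

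Proteins leave the ER in vesicles shaped by COPII. The GTPase SAR1 recruits an inner layer of SEC23 and SEC24, where SEC24 binds cargo, and an outer cage of SEC13 and SEC31. SNARE proteins fuse these carriers with the next compartment, and COPI vesicles return receptors and ER chaperones that carry a KDEL-type signal. Keratinocytes, sebocytes, melanocytes and dermal fibroblasts of skin all use this route, the last of these for collagen.

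The 6 RNA-seq libraries came from whole ear skin of mice aged 3 months. The CKO group held 3 libraries from mice that were homozygous for the floxed allele of Ufl1 and carried 1 copy of a keratin 14 Cre (genotype label Ufl1f/f KRT14Cre/+). The CTRL group held 3 libraries from mice with 1 or 2 floxed copies and no Cre named in the label (Ufl1f/+or Ufl1f/f). UFL1 is the ligase that couples the ubiquitin-like protein UFM1 to its targets, among them proteins at the ER membrane. The keratin 14 promoter drives Cre in basal keratinocytes and the epithelial cells that descend from them, so the RNA of dermal, nerve and immune cells came from cells outside that lineage. The labels do not say that each library is a separate animal. The p-values therefore reflect only how far these samples spread, which may be technical, and an effect of Cre itself cannot be told apart from that of Ufl1 loss.

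Total counts ran from 18212929 to 19050876 in the CKO libraries and from 17256339 to 20776539 in the CTRL libraries. Levels are given in CPM, each count relative to its library's TMM-adjusted total. Ufl1 stood at 34.9, 35.6 and 38.8 CPM in CKO 1 to 3, against 57.9, 47.0 and 46.1 CPM in CTRL 1 to 3, a log2 fold change of -0.47 (SE 0.14; edgeR unadjusted p = 0.00985, adjusted p = 0.778). Keratinocyte markers were abundant in all 6 libraries, with summed levels of 5161 to 6838 CPM in CKO and 2909 to 10213 CPM in CTRL for the 6 basal genes and of 8476 to 11458 CPM in CKO and 6030 to 10483 CPM in CTRL for the 6 suprabasal genes. Summed marker levels differed among controls. The 6 fibroblast markers summed to 21552, 21657 and 20435 CPM in CKO 1 to 3 and to 25370, 9655 and 15561 CPM in CTRL 1 to 3. The 7 melanocyte markers summed to 168 to 255 CPM in CKO and 43.2 to 60.3 CPM in CTRL, the 6 neutrophil markers to 39.6 to 376 CPM in CKO and 4.38 to 72.0 CPM in CTRL, the 6 macrophage markers to 595 to 886 CPM in CKO and 356 to 732 CPM in CTRL, and the 7 plasma cell markers to 33.7 to 62.6 CPM in CKO and 26.0 to 61.9 CPM in CTRL. The sums of sebocyte (804 to 993 CPM in CKO, 847 to 1656 CPM in CTRL), cartilage (854.5 to 1519 CPM in CKO, 741 to 1528 CPM in CTRL) and muscle markers (1677 to 4593 CPM in CKO, 2266 to 5578 CPM in CTRL) overlapped between the groups. Far2 alone gave 497 to 666 CPM of the sebocyte sums in CKO and 559 to 886 CPM in CTRL. Of the 6 sebocyte genes, 5 had a negative log2 fold change and 1 a positive one, over a range of -3.66 to 0.48 (median -0.24). No marker was at 0 in all libraries. In bulk tissue, fewer cells of a type and less RNA per cell cannot be told apart, and the part of these marker differences in the results below was not tested.

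The transport genes as a list had mostly small positive differences in CKO ear skin. Of the 41, 37 had a positive log2 fold change (90.2%), against 47.8% of all genes tested and 49.3% of the 7390 genes within the members' own range of mean levels (25.2 to 288 CPM). The median was 0.22 on the log2 scale (1.17-fold), against -0.01 over all genes tested. None of the 41 passed edgeR's quasi-likelihood test at an adjusted p under 0.05, a threshold that 0.0173% of all genes passed, and the smallest adjusted p was 0.309. Limma-voom and limma-trend called none of them either, while DESeq2 called 1 (Lman1), where it called 0.387% of all genes as higher.

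At an unadjusted p under 0.05 in edgeR, 10 of the 41 were higher and 0 lower in CKO, against 3.38% of all genes higher and 1.95% lower, and against 3.02% higher among genes of similar level. This count was 17 without CTRL 1, 6 without CKO 2, 4 without CKO 1 and 3 without CKO 3. No share of all genes is given for these fits, so these counts do not show how the members moved relative to other genes. For 19 of the 41 every CKO library lay above every CTRL library, and for 0 every CKO library lay below. The shares of all genes were 5.73% above and 4.81% below, and 6.09% of genes of similar level were above. Without CTRL 1 the count of non-overlapping members was 31. Fewer libraries separate more easily, and no share of all genes is given without CTRL 1, so 31 cannot be set against 19 or these shares. The genes were chosen with earlier results of these data known, so these shares are a description and not a test of the list.

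**Figure D1:**
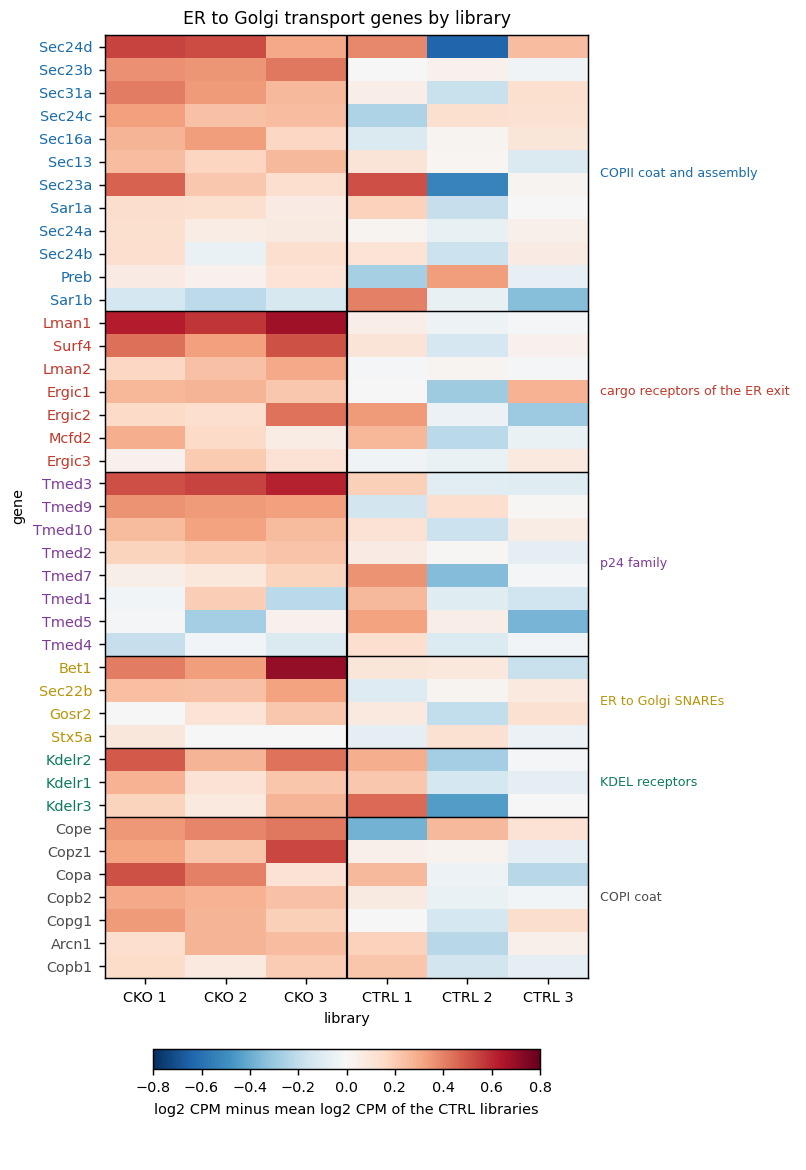
Heat map of the 41 transport genes (rows, grouped by role) in the 3 CKO and 3 CTRL libraries (columns), coloured by log2 CPM minus the gene's mean log2 CPM in CTRL. The log2 fold change is positive for 37 rows, the exceptions being Sar1b, Tmed1, Tmed4 and Tmed5, and CTRL 2 holds the lowest value of 21 of the 41 genes.

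The 3 CTRL libraries differed from each other more than the CKO libraries did. The standard deviation was larger in CTRL than in CKO for 33 of the 41 genes. The median coefficient of variation of the members was 4.98% in CKO and 11.6% in CTRL, against 12.05% in CKO and 20.9% in CTRL over all genes tested. Many of the genes tested lie outside the members' range of levels, and no value is given for genes of similar level, so this does not compare genes at equal level. The mean relative level of the 41 genes (log2 CPM minus each gene's mean over the 6 libraries) was 0.13, 0.09 and 0.12 in CKO 1 to 3 and 0.00, -0.21 and -0.13 in CTRL 1 to 3. CTRL 2 held the lowest of all 6 values for 21 members and the highest for 2, while CTRL 1 held the lowest for 8 and the highest for 9. In CTRL 2 the fibroblast sum was the lowest of the 6 libraries and the basal keratinocyte and sebocyte sums were the highest, and in CTRL 1 the fibroblast sum was the highest and both keratinocyte sums were the lowest. All CKO libraries lay above CTRL 1 for 23 members, and above CTRL 2 and above CTRL 3 for 35 each.

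A promoter element was looked for because members that differ together may share sequence that the list did not use. The RefSeq table (GRCm38.p6, the same assembly as mm10) held a promoter window for 36 of the 41 genes, from 250 bases before to 50 bases after the annotated start, and none for Lman1, Tmed2, Tmed7, Kdelr2 and Arcn1. On either strand, the unfolded protein response element TGACGTGG (UPRE), a site known to be bound by XBP1 and ATF6, was in the window of 6 of the 36 (16.7%), against 0.714% of 27025 genes with a window and 1.004% of the 12251 tested genes with one. The ER stress response element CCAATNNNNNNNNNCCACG was in none of the 36 windows (0.137% of all genes) and its variant ATTGGNCCACG in none (0.0444%), while the window of the chaperone gene Hspa5 held the longer of these strings, beginning 65 bases before its start. The shorter string CCACG, which every UPRE match contains on one strand, was in 27 of the 36 (75%), against 35.5% of all genes and 49.3% of the tested ones. Each UPRE match is printed below with up to 11 bases on either side, on the strand of the gene, with the match in capitals (CCACGTCA is the element read on the other strand).
Sec24d (chr3:123267459-123267488, plus strand): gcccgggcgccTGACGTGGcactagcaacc
Copb1 (chr7:114254690-114254719, minus strand): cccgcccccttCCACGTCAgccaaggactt
Copb2 (chr9:98563713-98563742, plus strand): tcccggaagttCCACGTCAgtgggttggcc
Sec23a (chr12:59011993-59012022, minus strand): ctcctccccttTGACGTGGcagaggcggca
Kdelr3 (chr15:79516367-79516396, plus strand): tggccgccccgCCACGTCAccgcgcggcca
Stx5a, first match (chr19:8741422-8741451, plus strand): tggcgcagcagCCACGTCAccgagttagga
Stx5a, second match (chr19:8741452-8741473, plus strand): gtacgtctaggTGACGTGGcgg

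These matches lay close to the RefSeq starts, to which all promoter positions here refer. The deposited table places the starts of Sec24d (123267455), Copb1 (114254711) and Copb2 (98563721) farther upstream, so there the matches of these genes lie within the gene. The first base of the match was 26 bases before the start in Sec24d, 28 before it in Copb1, 7 before it in Copb2 and 30 before it in Kdelr3, and at position 7 of the transcript in Sec23a and positions 10 and 40 in Stx5a. The 6 genes with the element had log2 fold changes of 0.03 to 0.40 in CKO (median 0.18), and the other 30 genes with a window had a median of 0.23. The range of the 6 lay above the values of Sar1b (-0.19), Tmed4 (-0.11), Tmed5 (-0.10) and Tmed1 (-0.01), whose windows held no UPRE. It lay below the values of Tmed3, Bet1 and Surf4, whose windows held none either. Lman1 also lay above this range, but it had no window and was not examined for the element. A match is a string in the window and does not show that a factor binds there.

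Of the cargo receptors, which collect soluble proteins in the ER lumen for COPII vesicles, all 7 had positive log2 fold changes (median 0.23), 2 with an unadjusted p under 0.05. Lman1 (ERGIC-53; ENSMUSG00000041891, chromosome 18, 65980754 to 66022580, mm10) is a mannose-binding lectin that cycles between the ER and the intermediate compartment. Its level was 133, 128 and 137 CPM in CKO 1 to 3, against 89.0, 83.3 and 84.9 CPM in CTRL 1 to 3. The groups did not overlap, with means of 132 ± 4.73 CPM in CKO and 85.7 ± 2.96 CPM in CTRL (SD, n = 3 each). The log2 fold change was 0.63 (SE 0.11), which was the largest of the 41 members and 1.54-fold (edgeR unadjusted p = 0.000494, adjusted p = 0.309). The p of an exact permutation test (two-sided) was 0.1, and 3 against 3 libraries allow none smaller. DESeq2 called the gene at an adjusted p of 0.000500. Without CKO 1, CKO 3 or CTRL 3 its adjusted p in DESeq2 was 0.115, 0.115 and 0.0604, with log2 fold changes of 0.60 to 0.63. The authors' deposited table gives Lman1 a log2 fold change of 0.63 and an adjusted p of 0.00729.

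Surf4, the receptor of several soluble secreted proteins, was at 286, 265 and 299.9 CPM in CKO 1 to 3, against 226, 192 and 215 CPM in CTRL 1 to 3. The groups did not overlap, and the log2 fold change was 0.42 (SE 0.14; edgeR unadjusted p = 0.0149, adjusted p = 0.828). Lman2 (VIP36), a lectin related to Lman1, was at 203, 213 and 223 CPM in CKO, against 179.7, 184 and 179.7 CPM in CTRL, again without overlap and with a log2 fold change of 0.23 (SE 0.12; edgeR unadjusted p = 0.0890). Mcfd2, the calcium-binding partner that forms a complex with LMAN1 for the export of clotting factors V and VIII, was at 79.7, 72.6 and 68.0 CPM in CKO, against 78.5, 56.3 and 63.0 CPM in CTRL. These groups overlapped, with a log2 fold change of 0.16 (SE 0.15; edgeR unadjusted p = 0.343) that was 0.05 without CTRL 2 and 0.29 without CTRL 1. The Ergic genes encode membrane proteins of the intermediate compartment, and their log2 fold changes were 0.23 (SE 0.16) for Ergic1, 0.22 (SE 0.19) for Ergic2 and 0.12 (SE 0.12) for Ergic3, with overlapping groups for each. Leaving out 1 library gave 0.10 (without CTRL 2) to 0.38 (without CTRL 3) for Ergic1, 0.088 (without CTRL 3) to 0.41 (without CTRL 1) for Ergic2 and 0.071 (without CKO 2) to 0.16 (without CKO 1) for Ergic3. Per gene length, Surf4 had the highest level of the 7, with 85.8 ± 5.54 FPKM in CKO and 63.8 ± 5.71 FPKM in CTRL, and Ergic2 the lowest, with 5.48 ± 0.685 FPKM in CKO and 4.68 ± 1.06 FPKM in CTRL (SD, n = 3 each).

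The p24 proteins are small membrane proteins that travel in both COPII and COPI vesicles and select cargo such as GPI-anchored proteins. They were the most mixed group, with 5 of 8 log2 fold changes positive and a median of 0.14. Tmed3 (ENSMUSG00000032353, chromosome 9, 89699206 to 89705068, mm10) was at 132, 134 and 142 CPM in CKO 1 to 3, against 105, 86.6 and 86.3 CPM in CTRL 1 to 3. The groups did not overlap, with means of 136 ± 4.97 CPM in CKO and 92.7 ± 10.8 CPM in CTRL (SD, n = 3 each) and CTRL 1 nearest to the CKO libraries. Its log2 fold change was 0.55 (SE 0.13; edgeR unadjusted p = 0.00269, adjusted p = 0.583), next after that of Lman1. DESeq2 gave Tmed3 an adjusted p of 0.0584, and without CTRL 1 one of 0.000137; without any other library it ran from 0.0910 to 0.659. Its promoter is shown because Tmed3 had the smallest p among the members with a window. The 250 bases before the RefSeq start (chr9:89705044-89705293, minus strand) hold no UPRE, and capitals mark the one CCACG match in them, read on this strand as CGTGG. The deposited table places the start of Tmed3 at 89705068, within these bases.
Tmed3: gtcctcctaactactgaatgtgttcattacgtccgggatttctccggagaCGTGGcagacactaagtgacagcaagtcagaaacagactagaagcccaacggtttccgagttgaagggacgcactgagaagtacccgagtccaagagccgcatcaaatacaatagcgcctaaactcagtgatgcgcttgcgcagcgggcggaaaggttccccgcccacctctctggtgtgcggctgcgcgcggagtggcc

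Tmed9, a p24 gene of the alpha subfamily, was at 133, 132 and 130.3 CPM in CKO, against 93.9, 114 and 105 CPM in CTRL, with a log2 fold change of 0.34 (SE 0.12; edgeR unadjusted p = 0.0245, adjusted p = 0.857). The CKO libraries stood close together and above all controls. Tmed10, of the delta subfamily, was at 229.7, 241 and 229 CPM in CKO, against 208, 171 and 200.2 CPM in CTRL, with a log2 fold change of 0.27 (SE 0.13; edgeR unadjusted p = 0.0766). Tmed2, of the beta subfamily and the most abundant p24 gene per length with 98.5 ± 1.99 FPKM in CKO and 85.4 ± 4.04 FPKM in CTRL (SD, n = 3 each), was at 246, 251 and 254 CPM in CKO, against 227, 219 and 207 CPM in CTRL. The groups of both Tmed10 and Tmed2 were separate, and the log2 fold change of Tmed2 was 0.20 (SE 0.12; edgeR unadjusted p = 0.141). The other 4 overlapped between the groups, with log2 fold changes of 0.08 (SE 0.19) for Tmed7, -0.01 (SE 0.18) for Tmed1, -0.10 (SE 0.19) for Tmed5 and -0.11 (SE 0.12) for Tmed4. Among these, Tmed7 was at -0.08 without CTRL 2 and 0.27 without CTRL 1. Without CTRL 1, Tmed1 was at 0.12, Tmed5 at 0.06 and Tmed4 at -0.05.

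The COPII coat and its assembly factors had positive log2 fold changes for 11 of 12 genes, with a median of 0.22. Sec23b, a paralog of the inner coat subunit SEC23 (ENSMUSG00000027429, chromosome 2, 144556229 to 144590749, mm10), was at 66.6, 66.1 and 69.1 CPM in CKO, against 51.6, 52.8 and 50.6 CPM in CTRL. The groups were far apart for their spread, with means of 67.3 ± 1.59 CPM in CKO and 51.7 ± 1.12 CPM in CTRL (SD, n = 3 each). The log2 fold change was 0.38 (SE 0.11; edgeR unadjusted p = 0.00855, adjusted p = 0.763). Its paralog Sec23a was at 86.3, 72.3 and 68.5 CPM in CKO, against 89.1, 43.0 and 63.2 CPM in CTRL. CTRL 1 was above and CTRL 2 below every CKO library, and the log2 fold change of 0.22 (SE 0.25) was -0.01 without CTRL 2 and 0.51 without CTRL 1.

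Sec31a, of the outer cage, was at 232, 222 and 209 CPM in CKO, against 181, 155 and 191 CPM in CTRL, a log2 fold change of 0.33 (SE 0.14; edgeR unadjusted p = 0.0420, adjusted p = 0.917). Its cage partner Sec13, which is also a nuclear pore component, was at 85.5, 81.0 and 86.3 CPM in CKO, against 77.2, 72.6 and 66.5 CPM in CTRL, a log2 fold change of 0.22 (SE 0.12; edgeR unadjusted p = 0.0900). Sec16a, the scaffold of ER exit sites, was at 117, 122 and 109 CPM in CKO, against 89.5, 98.6 and 104 CPM in CTRL, a log2 fold change of 0.26 (SE 0.12; edgeR unadjusted p = 0.0655). In each of these 3 genes every CKO library was above every CTRL library.

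The 4 SEC24 genes encode the cargo-binding subunit in 2 paralog pairs, A with B and C with D. Sec24c was at 143, 133 and 135 CPM in CKO, against 95.7, 124 and 123 CPM in CTRL, a log2 fold change of 0.26 (SE 0.14; edgeR unadjusted p = 0.101) that was 0.14 without CTRL 1. Sec24d was at 125, 123 and 106 CPM in CKO, against 112, 55.3 and 102 CPM in CTRL. Its log2 fold change of 0.40 (SE 0.25; edgeR unadjusted p = 0.148) was 0.14 without CTRL 2, the only control below 100 CPM, and 0.58 without CTRL 1. Sec24a and Sec24b had log2 fold changes of 0.09 (SE 0.11) and 0.07 (SE 0.13), and without CTRL 2 Sec24a was at 0.06 and Sec24b at -0.01. Sec24a had the lowest level per length of all 41 genes, with 4.13 ± 0.0999 FPKM in CKO and 3.88 ± 0.170 FPKM in CTRL (SD, n = 3 each).

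The GTPase genes and their exchange factor had overlapping groups. Sar1b was the only one of the 12 with a negative log2 fold change (-0.19, SE 0.19; edgeR unadjusted p = 0.345). It was at 137, 131 and 138 CPM in CKO, against 199.8, 145 and 119 CPM in CTRL, so the CKO libraries lay within the range of the controls, and the log2 fold change was 0.03 without CTRL 1 and -0.35 without CTRL 3. Sar1a was at 0.10 (SE 0.15), with 0.02 without CTRL 2 and 0.20 without CTRL 1. Preb (SEC12), the exchange factor that loads SAR1 with GTP, was at 0.05 (SE 0.17), with CTRL 1 below and CTRL 2 above all CKO libraries, and at -0.08 without CTRL 1 and 0.23 without CTRL 2. Per length, Sar1b was the most abundant member, with 107 ± 3.23 FPKM in CKO and 122 ± 32.7 FPKM in CTRL (SD, n = 3 each).

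**Figure D2:**
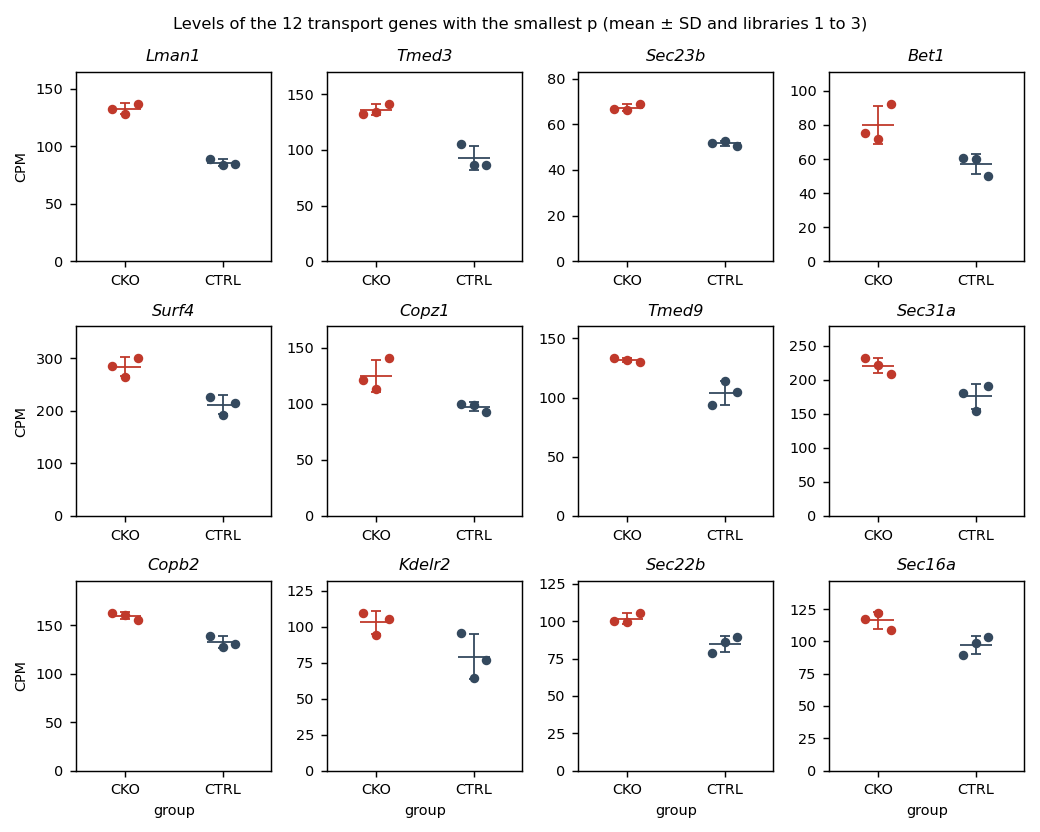
TMM-scaled CPM (y axes, from 0) of the 12 transport genes with the smallest p in CKO and CTRL ear skin; points are libraries 1 to 3 from left to right, and horizontal lines with bars are the mean ± SD. The groups do not overlap in any panel except that of Kdelr2, where CTRL 1 (95.6 CPM) exceeds CKO 2 (94.3 CPM).

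The SNARE genes of ER to Golgi fusion were all positive, and their median log2 fold change was 0.19. Bet1, a SNARE of ER-derived carriers, was at 75.4, 71.6 and 92.5 CPM in CKO, against 60.8, 60.3 and 50.2 CPM in CTRL. CKO 3 was the highest library and CTRL 3 the lowest, the groups did not overlap, and the log2 fold change was 0.48 (SE 0.15; edgeR unadjusted p = 0.0115, adjusted p = 0.805). Sec22b, an R-SNARE that also serves retrograde transport, was at 99.9, 99.5 and 106 CPM in CKO, against 78.7, 86.0 and 89.4 CPM in CTRL, a log2 fold change of 0.26 (SE 0.11; edgeR unadjusted p = 0.0504). The Golgi-side partners Gosr2 (0.11, SE 0.13) and Stx5a (0.03, SE 0.12) overlapped between the groups. Gosr2 was at 0.01 without CTRL 2 and 0.17 without CTRL 3, and Stx5a at -0.01 without CTRL 1 and 0.09 without CTRL 2.

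KDEL receptors bind chaperones such as BiP in the Golgi and return them to the ER. Kdelr2 was at 109.9, 94.3 and 106 CPM in CKO, against 95.6, 64.7 and 77.2 CPM in CTRL, a log2 fold change of 0.38 (SE 0.16; edgeR unadjusted p = 0.0471, adjusted p = 0.921). CTRL 1 lay within the CKO range and CTRL 2 lowest, and the log2 fold change was 0.26 without CTRL 2 and 0.54 without CTRL 1. Kdelr1 was at 118, 106 and 113 CPM in CKO, against 113, 88.1 and 92.7 CPM in CTRL (log2 fold change 0.20, SE 0.14). This was 0.13 without CTRL 2 and 0.31 without CTRL 1. Kdelr3 was at 34.9, 32.5 and 37.2 CPM in CKO, against 42.1, 22.6 and 30.7 CPM in CTRL, with CTRL 1 above and CTRL 2 below all CKO libraries. Its log2 fold change of 0.13 (SE 0.22) was -0.06 without CTRL 2 and 0.38 without CTRL 1. Per length, Kdelr1 (59.6 ± 3.28 FPKM in CKO, 51.8 ± 7.20 FPKM in CTRL) and Kdelr2 (56.1 ± 4.33 FPKM in CKO, 42.9 ± 8.66 FPKM in CTRL) were at similar levels and Kdelr3 was lower (24.5 ± 1.73 FPKM in CKO, 22.3 ± 7.01 FPKM in CTRL; SD, n = 3 each).

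The COPI coatomer is a complex of 7 subunits that coats retrograde vesicles as a unit, and the log2 fold changes of its 7 genes in the list were all positive. Their median was 0.27, the highest of the 6 role groups. Copz1 (zeta) was at 121, 114 and 141 CPM in CKO, against 100.4, 99.3 and 92.8 CPM in CTRL, a log2 fold change of 0.36 (SE 0.13; edgeR unadjusted p = 0.0229, adjusted p = 0.857). Copb2 (beta prime) was at 163, 160.4 and 156 CPM in CKO, against 139, 128 and 131 CPM in CTRL, a log2 fold change of 0.27 (SE 0.12; edgeR unadjusted p = 0.0467, adjusted p = 0.921). Copg1 (gamma) was at 130.4, 124 and 118 CPM in CKO, against 103, 93.3 and 113 CPM in CTRL, a log2 fold change of 0.27 (SE 0.13; edgeR unadjusted p = 0.0671). The groups of these 3 subunits did not overlap.

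Cope (epsilon) was at 139, 144 and 147 CPM in CKO, against 84.1, 131 and 119 CPM in CTRL. CTRL 1 was the low library here, and the log2 fold change of 0.36 (SE 0.17; edgeR unadjusted p = 0.0698) was 0.19 without it. Copa (alpha) was at 358, 333 and 273 CPM in CKO, against 301, 245 and 216 CPM in CTRL, a log2 fold change of 0.34 (SE 0.18) with CTRL 1 above CKO 3. Arcn1 (delta) was at 0.21 (SE 0.15) and Copb1 (beta) at 0.13 (SE 0.14), both overlapping between the groups. Without CTRL 2 they were at 0.11 and 0.06, and without CTRL 1 at 0.30 and 0.25. Per length, the coatomer genes ran from Cope at 42.4 ± 1.28 FPKM in CKO and 32.9 ± 7.03 FPKM in CTRL down to Copg1 at 11.2 ± 0.533 FPKM in CKO and 9.29 ± 0.949 FPKM in CTRL (SD, n = 3 each).

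**Figure D3:**
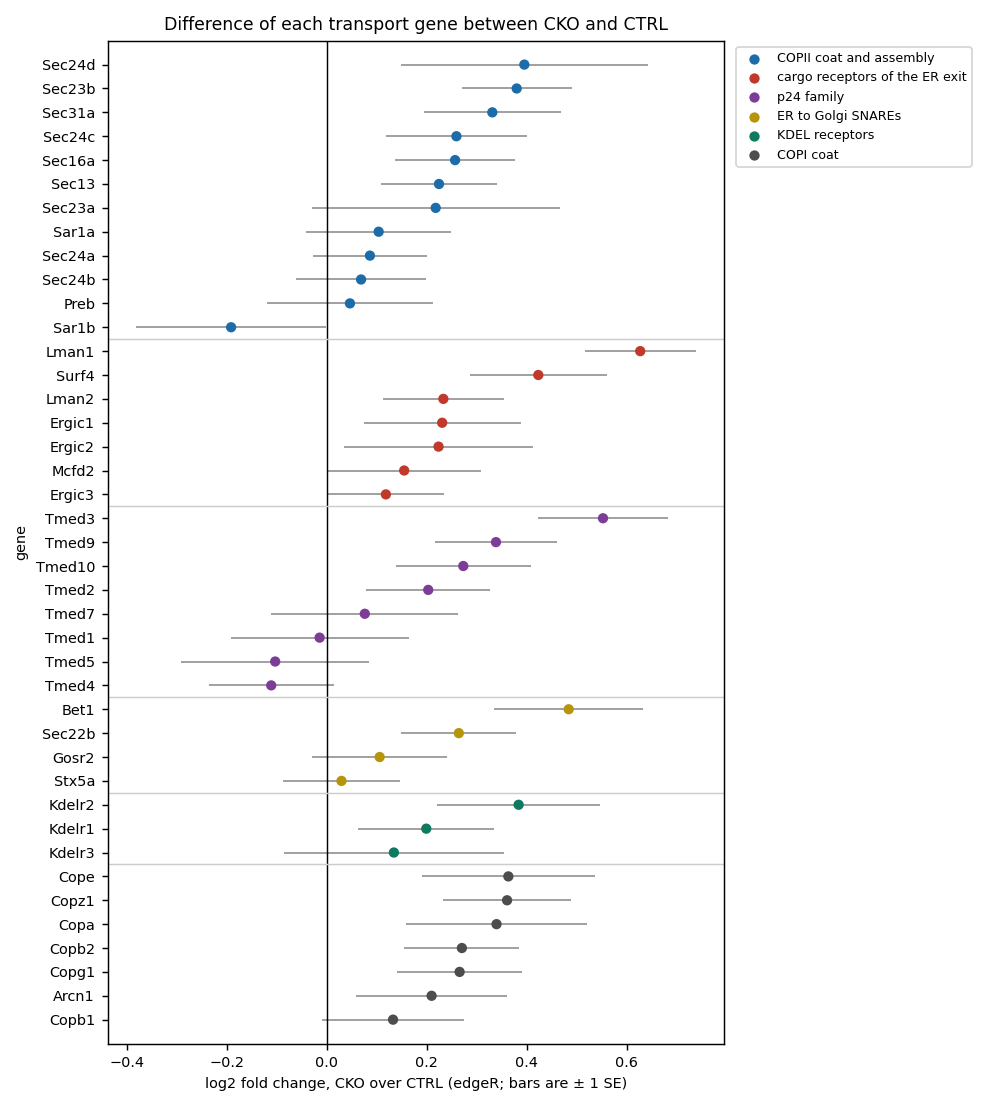
Log2 fold change of CKO over CTRL (x axis, edgeR) for each of the 41 transport genes (rows, coloured by role), with bars of 1 standard error either side. Lman1 (0.63) and Tmed3 (0.55) lie farthest to the right, and 4 genes lie left of 0.

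Related members were compared within each library, because a ratio of 2 genes does not depend on the scaling of the library. In 3 of 10 pairs the ratios of the groups did not overlap. Among single genes tested, 5.73% had every CKO library above and 4.81% every CKO library below every CTRL library, and no such share was computed over gene pairs, so the count of 3 is a description. The log2 ratio of Lman1 to Lman2 averaged -0.69 ± 0.06 in CKO and -1.08 ± 0.06 in CTRL, a difference of 0.39, and that of Kdelr2 to Kdelr1 averaged -0.12 ± 0.03 in CKO and -0.32 ± 0.11 in CTRL, a difference of 0.19 (SD, n = 3 each). That of Tmed3 to Tmed4 averaged 1.42 ± 0.09 in CKO and 0.75 ± 0.07 in CTRL, a difference of 0.67. These 2 genes belong to different p24 subfamilies and had the highest and lowest log2 fold changes of the 8 p24 genes, so this ratio restates their separate values. Two-sided exact permutation tests gave p = 0.1 for each, the smallest possible here, and p = 0.333 after Benjamini-Hochberg adjustment over the 10 pairs. The other 7 pairs overlapped. The ratio of Sec24a to Sec24b differed by 0.02 (-0.82 ± 0.08 in CKO and -0.83 ± 0.10 in CTRL), while those of Sec23a to Sec23b (0.16 ± 0.20 in CKO and 0.27 ± 0.54 in CTRL) and of Sec24d to Sec24c (-0.22 ± 0.12 in CKO and -0.41 ± 0.70 in CTRL) spread widely among the controls.

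**Figure D4:**
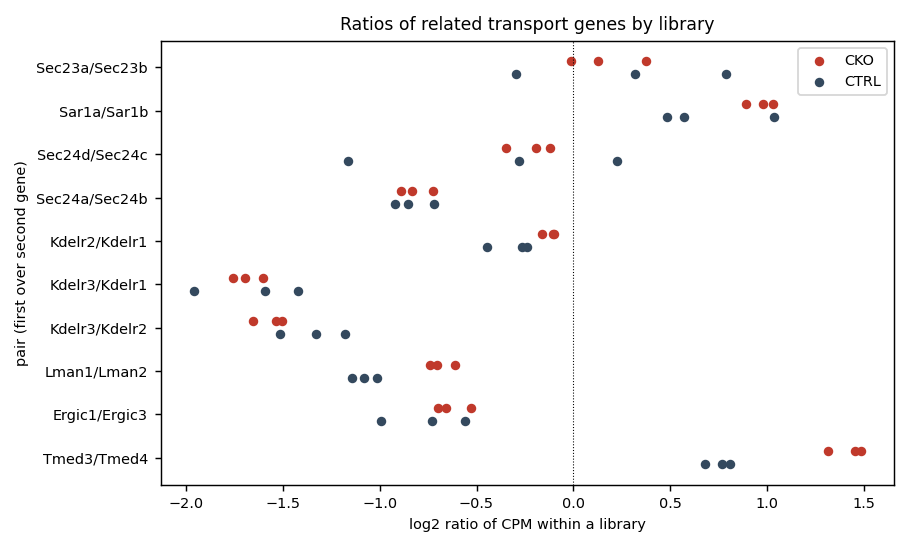
Log2 ratio of CPM (x axis) for 10 pairs of related transport genes (rows), with CKO libraries above CTRL libraries in each row. The 2 groups are apart for Kdelr2/Kdelr1, Lman1/Lman2 and Tmed3/Tmed4, and the controls spread over more than 1 log2 unit for Sec23a/Sec23b and Sec24d/Sec24c.

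Other genes of the same route, from a list of 60 that shared no gene with the 41, had smaller differences. Of these 60, 57 were tested, 41 were positive (71.9%) and the median was 0.10, with 3 of them higher in CKO and 0 lower where the unadjusted edgeR p was under 0.05, and with 0 called by edgeR or DESeq2. Every CKO library was above every CTRL library for 10 and below for 1. Over all genes tested, 5.73% were above, 4.81% were below, and 3.38% were higher at an unadjusted edgeR p under 0.05. Yif1a, a membrane protein of the intermediate compartment, was at 60.4, 57.9 and 60.1 CPM in CKO, against 39.1, 44.3 and 44.7 CPM in CTRL (log2 fold change 0.48, SE 0.12). Gbf1, the exchange factor that activates ARF1 for COPI assembly, was at 97.9, 86.3 and 86.1 CPM in CKO, against 63.8, 64.6 and 72.9 CPM in CTRL (0.43, SE 0.12). Gorasp2, a Golgi stacking protein, was at 0.33 (SE 0.12), Scfd1, a regulator of SNARE assembly, at 0.33 (SE 0.16) and Pef1, a calcium-binding regulator of COPII, at 0.30 (SE 0.14).

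A list of 24 clathrin and adaptor genes, which coat vesicles beyond the Golgi, had a median of 0.09, with 19 positive, 4 without overlap and 0 at an unadjusted p under 0.05 in edgeR, and with 0 called by edgeR or DESeq2. Clta had the smallest p of these, at 0.25 (SE 0.12). A list of 22 ER chaperone and degradation genes had a median of 0.55, with 22 positive, 16 without overlap, 14 higher at an unadjusted p under 0.05, 0 called by edgeR and 9 by DESeq2. Hspa5 (BiP), a ligand of the KDEL receptors, was at 727, 678 and 748 CPM in CKO, against 343, 310.4 and 318 CPM in CTRL (log2 fold change 1.15, SE 0.15; edgeR adjusted p = 0.105). DESeq2 called Hspa5 (adjusted p = 2.05e-15) and limma-voom did not (adjusted p = 0.112). Over all genes tested, 5.73% had every CKO library above every CTRL library. At an unadjusted edgeR p under 0.05, 3.38% were higher, and DESeq2 called 0.387% higher. The difference between these lists was not tested.

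**Figure D5:**
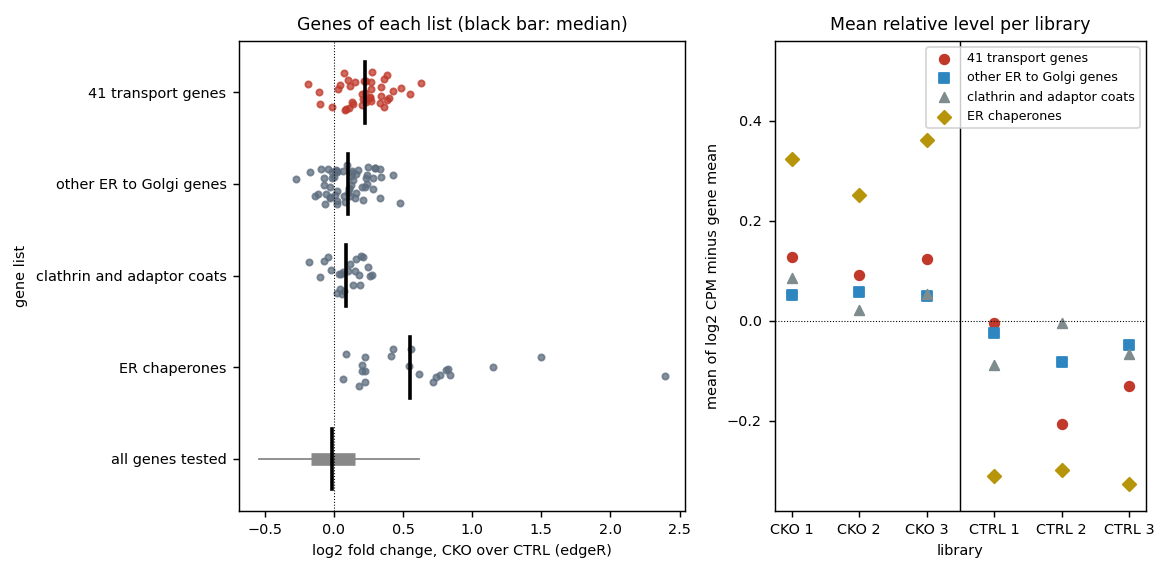
Left, log2 fold change of CKO over CTRL (x axis) for each gene of 4 lists, with black bars at the medians (0.22 for the transport genes, 0.55 for ER chaperones) and, for all genes tested, a thick bar over the quartiles and a thin line over the central 90%. Right, list average (y axis) of each gene's log2 CPM relative to its own mean, by library, where the transport genes lie at 0.09 to 0.13 in CKO and at -0.21 to 0.00 in CTRL.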

How the data were processed

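Libraries were made with the NEBNext Ultra RNA kit from TRIzol RNA, per the labels' protocols. Per the submitters' processing notes, HISAT2 and HTSeq were used with mm10. Strand setting, parameters and annotation release are not given in the sources used here. The deposited table holds the authors' raw counts, FPKM values, a normalized mean count per group (a signal value), log2 fold changes and p-values with adjusted p-values, per the file headers, which do not name a test. Gene length and coordinates came from the same table.

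Counts of 17318 genes (filterByExpr) were scaled by TMM and fitted with edgeR 4.0.16 (robust quasi-likelihood, no covariates, R 4.3.3). P-values were adjusted by Benjamini-Hochberg over all genes, with a threshold of 0.05. SE is the log2 fold change over the root of F. Log2 CPM used a prior count of 2. Alternatives were DESeq2 1.42.0, limma-voom and limma-trend (limma 3.58.1) on log2(FPKM + 1) for genes with a mean of at least 0.5 FPKM, other scaling, no filter, the replicate number as a block, and leaving out each library. The members and lists were chosen with earlier results of these data known. Values in every library are given for the 16 members with the smallest p, at least 1 per role, and further members were added after their values were seen.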

Additional observations from a re-analysis of the deposited data

How the results depend on the processing

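The number of positive members was 37 under each alternative fit to all 6 libraries and ran from 33 to 38 when 1 library was left out. The median log2 fold change ran from 0.21 to 0.25 and, leaving out 1 library, from 0.19 to 0.26. The number higher at an unadjusted p under 0.05 was 9 or 10, except 6 with the replicate number as a block, and 3 to 17 leaving out 1 library. It was 0 in the other direction throughout. No share of all genes at this threshold is given for these settings, so the range is not one of the members relative to other genes. The number without overlap ran from 21 to 31 leaving out 1 library, in a comparison added after seeing the data. Groups separate more easily with fewer libraries, and no share of all genes is given for these fits, so this range does not show how stable the count is. Over all genes, 3 calls in edgeR became 91 in DESeq2, 25 without the filter, 12 with the block, 0 in limma-voom, 0 in limma-trend on FPKM and 0 to 4 leaving out 1 library; the cause was not tested. Among members, calls were 0 in edgeR and 1 in DESeq2 (Lman1). In fits added after seeing the data, DESeq2 called 1 member without CKO 2, 1 without CTRL 2, 2 without CTRL 1 (Lman1 and Tmed3) and 0 without CKO 1, CKO 3 or CTRL 3. No share of all genes called is given for these fits, so these counts cannot be read as a result about the members.

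Leaving out 1 library turned the sign of 9 members, whose values then ranged from -0.060 to 0.38 (Kdelr3), -0.082 to 0.23 (Preb), -0.35 to 0.030 (Sar1b), -0.0081 to 0.51 (Sec23a), -0.012 to 0.13 (Sec24b), -0.014 to 0.092 (Stx5a), -0.13 to 0.12 (Tmed1), -0.27 to 0.063 (Tmed5) and -0.080 to 0.27 (Tmed7). No other setting turned a sign. Lman1 was at 0.59 to 0.66 in every fit. Libraries 1, 2 and 3 of the groups share only a number. Deviations from the group means correlated across genes at 0.22, -0.04 and -0.04 for the same-numbered pairs, and CKO 2 and CKO 3 correlated more with CTRL 3 (0.19) and CTRL 2 (0.14). Members had 413 to 6431 counts per library, and SEs were 0.11 to 0.25. How much of these SEs came from counting error and how much from spread between libraries was not tested.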

Other observations

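Neighbouring genes bear on how some members were counted. Sec24a and Sar1b lie head to head on chromosome 11, on the minus and plus strands, with starts 53 bases apart, and their log2 fold changes were 0.09 (SE 0.11) and -0.19 (SE 0.19). Ergic2 shares 3680 bases with Far2 on the other strand, a fatty acyl reductase gene of sebaceous glands that was at 497, 567 and 666 CPM in CKO and 559, 886 and 613 CPM in CTRL, far above the 25.5 to 42.3 CPM of Ergic2. Tmed5 shares 2639 bases with Mtf2, Kdelr1 shares 5607 with Grin2d, and Surf4 shares 144 with Surf2, each on the opposite strand. Tmed1 shares 207 bases with Dnm2 (1531 to 2966 counts per library) and Copa 267 with Ncstn, also on opposite strands. With no strand setting given for the counting, the assignment of reads in these overlaps is uncertain. Tmed7 shares 14299 bases with Ticam2 (11 to 49 counts per library) on the same strand, where a strand setting would not separate reads. Such overlaps, with a gene that reaches 10 counts in a library, involve 13 members. Surf2 had a log2 fold change of -0.11 (SE 0.19), against 0.42 for Surf4. The pseudogene Tmed10-ps was at 7.97, 7.77 and 7.91 CPM in CKO and 6.56, 5.62 and 6.90 CPM in CTRL, the same direction as Tmed10, with which it may share reads.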
